A study of Arabidopsis thaliana with 6 samples.

Results

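The dirigent protein genes of Arabidopsis thaliana were followed in sorted xylem pole pericycle cells before auxin and after 2 h and 6 h on it. Of 10 dirigent loci listed, 4 had a probe set that the probe-to-gene annotation paired with that gene alone: AT4G13580, AT2G39430, AT1G58170 and AT3G13650. These 4 are the genes described, out of 13286 genes with such a probe set. Each had 1 probe set, so the rule that takes the probe set with the highest mean signal per locus had nothing to choose between. The loci AT1G07730 and AT5G42500 had only a probe set shared with a second gene, and the other 4 listed loci (AT3G24020, DIR5, DIR6 and ESB1) were not analysed here. The list was drawn up with results of these arrays known, so its make-up is no evidence about how the family behaves.

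The cells came from the enhancer trap line J0121, in which GFP marks the xylem pole pericycle, and were isolated by fluorescence-activated sorting. All seedlings had grown on NPA, which blocks auxin transport, at 10 µM. The 0 h group was taken at 72 hours after germination with no NAA. The 2 h and 6 h groups were moved at that age to 10 µM NAA, a synthetic auxin, and were taken at 74 and 78 hours after germination, so time on NAA and seedling age went together in all 3 groups. There were 2 arrays per group, biological replicates by their labels, and every group shared the J0121 background and the growth on NPA.

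Dirigent proteins are secreted plant proteins with no catalytic centre of their own. They bind monolignol radicals that peroxidases or laccases make in the cell wall and steer how these couple, which fixes the handedness of lignans such as pinoresinol. In the root endodermis, the layer that surrounds the pericycle, ESB1 and a few related dirigent proteins are needed to lay down the lignin of the Casparian strip, the barrier that seals the spaces between cells. AT2G39430 and AT4G13580 belong to that endodermal group. A lateral root starts in the pericycle and later has to grow out through the endodermis.

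The 4 genes followed 3 different courses. AT4G13580 and AT2G39430 were bright at 0 h and 2 h and fell by 6 h, with log2 changes from 0 h of -4.83 and -4.96 that became -3.45 and -3.26 without replicate 2 at 6 h and -6.21 and -6.65 without replicate 1. AT1G58170 rose 2.97-fold by 2 h and stood 3.37-fold above 0 h at 6 h, folds that are uncertain because its 0 h signals were dim. No change of AT3G13650 passed the test at either time. Of the 4 genes 3 differed between time points in limma's F test, against 29.6% of the 13647 probe sets tested. All 4 were called present on replicate 1 at 2 h, for which alone detection calls were used here.

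**Figure D1:**
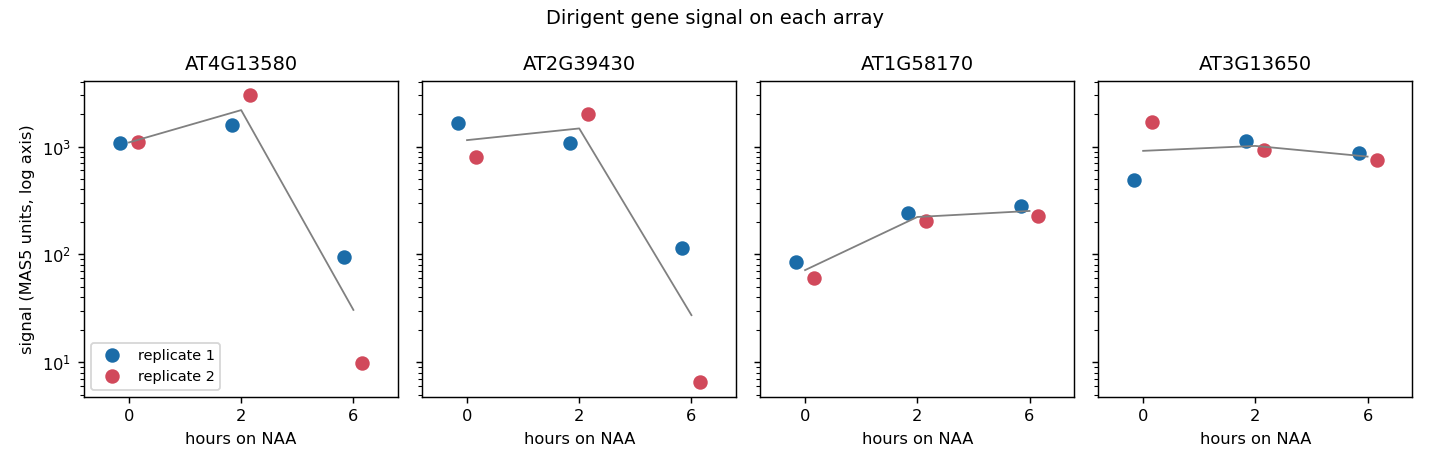
Signal of each dirigent gene on every array (MAS5 units, log axis) at 0, 2 and 6 h on NAA, with the time points equally spaced, points for replicates 1 and 2 and a line through their geometric means. AT4G13580 and AT2G39430 drop at 6 h, to 95.4 and 115 on replicate 1 and to 9.8 and 6.5 on replicate 2, while AT1G58170 lies higher on all arrays with NAA than at 0 h.

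AT4G13580, one of the endodermal dirigent genes, had signals of 1073.3 and 1110.2 on replicates 1 and 2 at 0 h, then 1590.7 and 2982.5 at 2 h and finally 95.4 and 9.8 at 6 h. Both 2 h arrays lay above both 0 h arrays, and both 6 h arrays lay far below all the others. The mean of its arrays was 1092 ± 26.1 before NAA, 2287 ± 984 after 2 h and 52.6 ± 60.5 after 6 h (SD, n = 2). On the log2(signal + 5) scale it fell by 4.83 ± 0.68 from 0 h to 6 h (SE; adjusted p = 0.000338, limma). From 2 h to 6 h it fell by 5.82 ± 0.68 (adjusted p = 0.000471, limma), and the change was -4.44 without replicate 2 at 6 h and -7.2 without replicate 1. At 2 h the change from 0 h was 0.99 with a 95% interval of -0.51 to 2.49 (adjusted p = 0.393, limma), so the higher signals at 2 h did not pass the test.

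AT2G39430, also of the endodermal group, read 1651.3 and 797.3 at 0 h, then 1076.3 and 2014.5 at 2 h and finally 115 and 6.5 at 6 h. The 0 h and 2 h arrays overlapped, and both 6 h arrays lay below them. The mean signals were 1224 ± 604, 1545 ± 663 and 60.75 ± 76.7 (SD, n = 2). AT2G39430 fell by 4.96 ± 0.83 from 0 h to 6 h (adjusted p = 0.000942, limma). From 2 h to 6 h it fell by 5.31 ± 0.83 (adjusted p = 0.00221, limma), and the change was -3.62 without replicate 2 at 6 h and -7.01 without replicate 1. Between 0 h and 2 h its log2 change was 0.36, with a 95% interval of -1.46 to 2.18 (adjusted p = 0.831, limma). That interval is wide, and holds both a clear rise and a clear fall.

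Both genes were brighter on replicate 1 than on replicate 2 at 6 h, by 2.76 for AT4G13580 and 3.38 for AT2G39430 in log2(signal + 5). Among all tested probe sets the median absolute gap between these arrays was 0.38, and a gap at least as large was seen in 0.535% and 0.147% of them. For scale, probe sets called absent on replicate 1 at 2 h had a median signal of 17.5 there and a 95th percentile of 76.7, so the signals on replicate 2 at 6 h are in the range of undetected transcripts on that array. The size of each fall therefore differs between the 6 h arrays, and no fold is given for these genes. Without replicate 2 at 6 h the log2 change from 0 h was -3.45 for AT4G13580 (adjusted p = 0.000977, limma) and -3.26 for AT2G39430 (adjusted p = 0.00256). Without replicate 1 at 6 h the changes were -6.21 (adjusted p = 7.69e-05, limma) and -6.65 (adjusted p = 0.000102). The residual SDs of the genes, 1.19 and 1.49, were above the median of 0.39 over tested probe sets, and limma's SEs above are drawn towards that common level.

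AT1G58170 moved the other way. It read 85.3 and 60 at 0 h, then 242.3 and 204 at 2 h and finally 283.4 and 225.6 at 6 h, and its replicates lay close together at every time. All arrays with NAA were brighter than both arrays without it, and the 2 h and 6 h arrays overlapped. From a mean of 72.65 ± 17.9 at 0 h the signal went to 223.2 ± 27.1 at 2 h and 254.5 ± 40.9 at 6 h (SD, n = 2). AT1G58170 rose by 1.57 ± 0.38 at 2 h (adjusted p = 0.0222, limma), a 2.97-fold change. At 6 h it stood 1.75 ± 0.38 above 0 h (adjusted p = 0.0044, limma), a 3.37-fold change. Its 0 h signals of 85.3 and 60 lay near 76.7, the 95th percentile of signals called absent on replicate 1 at 2 h. They may be background, so these folds are uncertain. Between 2 h and 6 h the log2 change was 0.18, with a 95% interval of -0.65 to 1.01. The call at 2 h was lost without replicate 2 at 0 h (1.33, adjusted p = 0.0545, limma), without replicate 1 at 2 h (1.45, adjusted p = 0.162) and without replicate 2 at 2 h (1.69, adjusted p = 0.116).

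AT3G13650 read 493.4 and 1688.2 at 0 h, then 1114.8 and 922 at 2 h and finally 866.8 and 751.8 at 6 h. The 0 h arrays bracketed all the others, and replicate 1 minus replicate 2, which was -1.76 in log2(signal + 5), was matched in size or passed by 4.45% of tested probe sets. The log2 changes were 0.15 from 0 h to 2 h (95% interval -0.90 to 1.20) and -0.18 from 0 h to 6 h (-1.23 to 0.87), with adjusted p = 0.881 and 0.813 (limma). From 2 h to 6 h the change was -0.33 (95% interval -1.38 to 0.72, adjusted p = 0.735, limma), although both 6 h arrays lay below both 2 h arrays. The result at 6 h rests on the 0 h arrays: without replicate 1 at 0 h the change was -1.06 and was called (adjusted p = 0.0387, limma), and without replicate 2 at 0 h it was 0.70 (adjusted p = 0.151).

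At 2 h, then, 1 of the 4 genes was called, and it was higher, where 11.4% of all tested probe sets were called and 7.26% were called higher. The arrays of 0 h and 2 h did not overlap for 2 of the 4, both higher at 2 h, against 22.6% of all tested probe sets. From 0 h to 6 h 3 of the 4 were called, 1 higher and 2 lower, where 33.8% of all tested probe sets were called, 16.8% higher and 17% lower. Non-overlapping arrays gave the same split, 1 higher and 2 lower, against 30.4% and 35.4% of tested probe sets. From 2 h to 6 h 2 of the 4 were called and both were lower, where 8.72% of tested probe sets were called and 5.59% were lower; 3 of the 4 were lower with no overlap, against 25.3%. The median log2 change of the 4 genes was 0.68 at 2 h, -2.5 from 0 h to 6 h and -2.82 from 2 h to 6 h, beside -0.15, -0.11 and 0.1 over all tested probe sets. No gene lay near the medians at 6 h, which fall between AT4G13580 and AT2G39430 on one side and AT1G58170 and AT3G13650 on the other. They do not describe a fall of all 4 genes. The comparisons share arrays and are not independent of each other. With each array centred on its median the medians over all tested probe sets became 0.12, 0.01 and -0.05 in place of -0.15, -0.11 and 0.1. The scaling alone thus shifts a change by the difference between the old and the new median. At 2 h, for example, the change of AT4G13580 went from 0.99 to 1.26. Relative to the median of all probe sets AT1G58170 had changes of 1.72 and 1.86 at 2 h and 6 h from 0 h, and AT4G13580 and AT2G39430 had changes of -4.72 and -4.85 at 6 h.

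**Figure D2:**
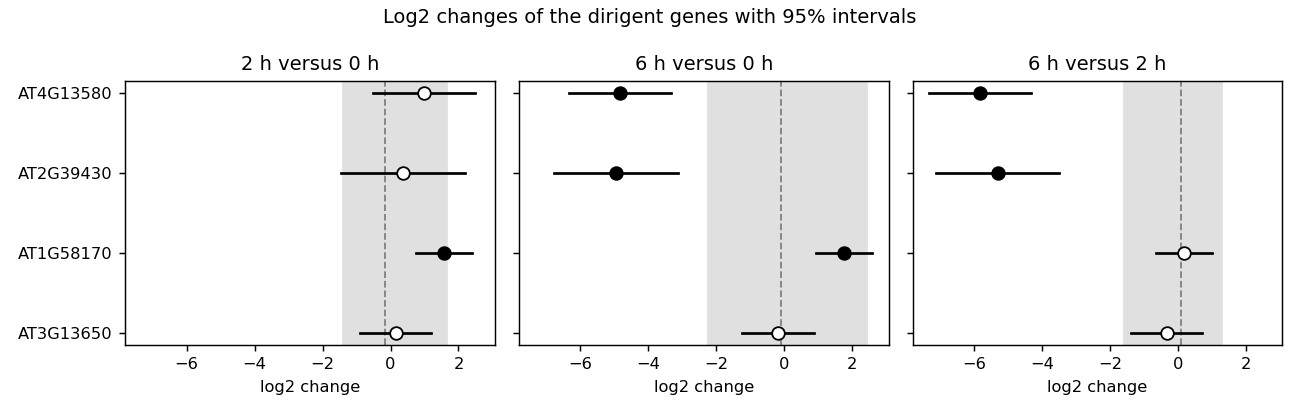
Log2 change of each dirigent gene in the 3 comparisons, with its 95% interval from limma; filled points passed an adjusted p of 0.05. The grey band spans the 5th to 95th percentile of all 13647 tested probe sets and the dashed line is their median; AT4G13580 and AT2G39430, at -4.83 and -4.96 from 0 h to 6 h, lie outside the band, which runs from -2.25 to 2.43.

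Likeness between courses was measured as the root mean square difference of log2(signal + 5) over the 6 arrays, each gene taken relative to its own mean. AT4G13580 and AT2G39430 differed by 0.46 on this measure, against 2.6 to 3.08 between either of them and AT1G58170 or AT3G13650. Among all tested genes with a probe set of their own, AT4G17215 (0.43), AT2G39430 itself (0.46) and AT5G65530 (0.54) were nearest to AT4G13580. Nearest to AT2G39430 were AT4G13580, AT1G44970 (0.55) and AT4G02090 (0.55). AT1G44970 went from 2665 and 2424.3 at 0 h, and 1294.8 and 3391.8 at 2 h, to 203.1 and 5 at 6 h, with the same wide gap between the 6 h arrays. AT4G17215 (47.8 and 6.3), AT5G65530 (189.2 and 11.7) and AT4G02090 (80.4 and 10) had such a gap at 6 h too. The measure runs over single arrays, so likeness to these genes counts a shared gap between replicates as well as a shared time course. AT1G58170 was nearest to AT1G14810 (0.11), to DIM1A, which encodes an rRNA dimethylase (0.13), and to AT4G02720 (0.13).

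Genes that act with dirigent proteins in the Casparian strip were read from a list of 17, of which 3 had a probe set of their own and were tested. All 3 fell from 0 h to 6 h, where 17% of all tested probe sets were called lower, and from 2 h to 6 h, where 5.59% were. The list was chosen with earlier results of these data known, so these counts are no evidence about strip genes as a group. At 2 h 0 of the 3 were called (limma; 0 at an unadjusted p under 0.05 too), against 11.4% of all tested probe sets. GSO1, the receptor kinase that checks whether the strip is sealed, read 601.1 and 828.6 at 0 h, then 553.4 and 1212.5 at 2 h and finally 75.6 and 26.1 at 6 h. It fell by 3.83 ± 0.50 from 0 h to 6 h (adjusted p = 0.000192, limma). AT1G61590, which was listed as SGN1, a kinase of the GSO1 pathway, read 65.2 and 64.3 at 6 h after 638.8 and 689.5 at 0 h, and fell by 3.26 ± 0.38 (adjusted p = 9.66e-05, limma). AT4G34600, listed as CIF2, a peptide ligand of GSO1, read 59.7 and 28.9 at 6 h after 918 and 1543.8 at 0 h, and fell by 4.67 ± 0.40 (adjusted p = 1.92e-05, limma). All 6 h signals of these 3 genes lay below 76.7, the 95th percentile of signals called absent on replicate 1 at 2 h, so they may be background and the sizes of the falls are uncertain.

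These falls stand beside those of AT4G13580 and AT2G39430 in cells sorted as pericycle. Of 10 listed endodermis markers 2 had a probe set of their own, GSO1 and AT1G61590, and both are also on the list of strip genes. AT4G34600 is not among the listed endodermis markers, and its fall is not read as one of that layer. The summed signal of GSO1 and AT1G61590 was 1239.9 and 1518.1 at 0 h, then 995.2 and 2107.8 at 2 h and finally 140.8 and 90.4 at 6 h. The 2 endodermis markers and the dirigent genes of that layer were thus both bright at 0 h and 2 h, and both were low at 6 h; the part of endodermal cells in the result was not tested. In sorted samples of many cells, fewer cells of a type and less RNA per cell cannot be told apart. Of 13 listed pericycle and stele markers only LBD16 and LBD29 had a probe set of their own, with a summed signal of 532.8 to 676.9 at 0 h, 2338.4 to 2654.7 at 2 h and 1122.9 to 1540.5 at 6 h. LBD16, which made up most of each sum, was called absent on replicate 1 at 2 h at a signal of 1920.4. Both genes respond to auxin, so the labelled cell type could not be checked with markers that hold still.

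Markers of other layers were read in the same way. Summed signals were 153.1 to 173.7 at 0 h and 77.8 to 89.9 at 6 h for 2 cortex markers, 87.0 to 119.3 and 73.8 to 156.4 for 2 of 4 epidermis markers, and 53.8 to 56.0 and 41.3 to 119.9 for 1 of 3 phloem markers. The 4 xylem and 3 root cap markers listed were not analysed here. The cortex marker AT1G09750 had a log2 change of -1.41 ± 0.55 from 0 h to 6 h (adjusted p = 0.0692, limma). In any comparison 0 of the 3 tested markers of these layers were called (1 at an unadjusted p under 0.05, AT1G09750 from 0 h to 6 h). Of all tested probe sets 11.4% were called at 2 h, 33.8% from 0 h to 6 h and 8.72% from 2 h to 6 h. With so few markers, the count does not show that these layers held steady.

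**Figure D3:**
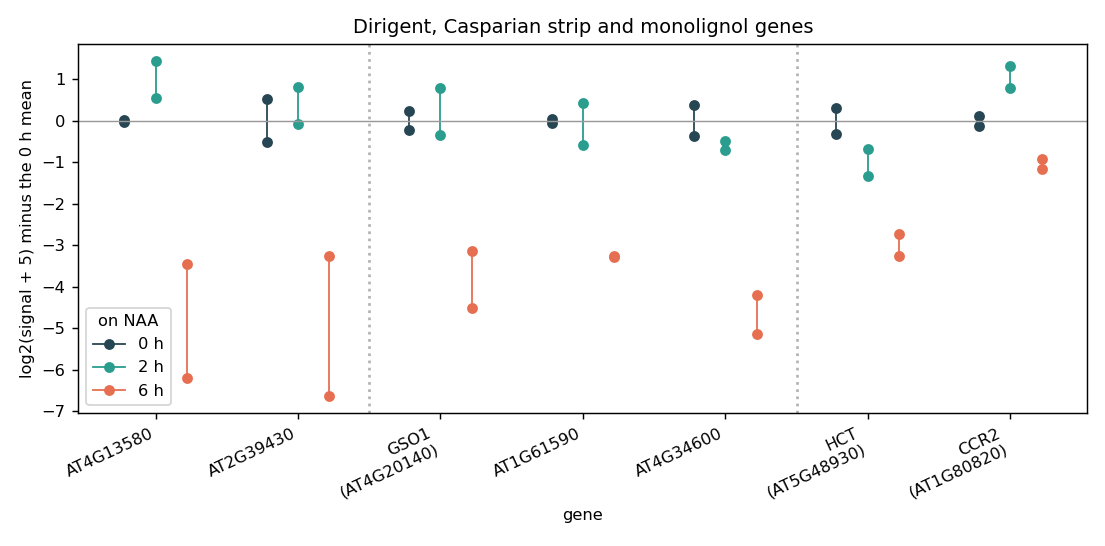
Log2(signal + 5) minus the 0 h mean of the same gene for AT4G13580 and AT2G39430, for GSO1, AT1G61590 and AT4G34600 of the Casparian strip, and for HCT and CCR2 of monolignol synthesis; each pair of joined points is the 2 arrays of a time point. All 7 genes shown lie lower on both 6 h arrays than on both 0 h arrays, against 35.4% of all tested probe sets. The dirigent genes AT1G58170, which rose, and AT3G13650, which was not called, are not shown. The gap between the 6 h arrays is widest for AT4G13580 and AT2G39430 (2.76 and 3.38).

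The monolignols that dirigent proteins steer are made by the phenylpropanoid pathway. Of 19 listed genes of that pathway 2 had a probe set of their own, and both were tested. Both were called lower from 0 h to 6 h, where 17% of all tested probe sets were, and from 2 h to 6 h, where 5.59% were. This list was also chosen with earlier results of these data known. HCT, an acyltransferase that leads towards coniferyl alcohol, read 2564.3 and 3955.9 at 0 h, then 1254.2 and 1985.7 at 2 h and finally 325.6 and 475.4 at 6 h. It fell by 3.00 ± 0.37 from 0 h to 6 h (adjusted p = 0.000131, limma). CCR2, a cinnamoyl-CoA reductase, read 869.1 and 1033.7 at 0 h, then 2388.1 and 1641.2 at 2 h and finally 423.4 and 497.6 at 6 h. It fell by 1.04 ± 0.32 from 0 h to 6 h (adjusted p = 0.028, limma) and by 2.10 ± 0.32 from 2 h to 6 h (adjusted p = 0.00199). Most genes of both lists were not analysed here, so the counts speak only for the genes tested. Of 16 laccase genes only LAC16 had a probe set of its own, with signals of 1.5 to 8.5, and of 3 genes of lignan reduction and glycosylation only UGT71C1 had, with signals of 2 to 62.3. Neither was bright enough to be tested.

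The dirigent family has further members in Arabidopsis, and 15 loci of the family outside the list were also looked up. This list was written after the files were seen and was not chosen on values. Of the 15, 11 had a probe set of their own and 4 of these were bright enough to be tested. AT1G55210, AT2G21100, AT4G11190 and AT4G11210 all fell from 0 h to 6 h, where 17% of all tested probe sets were called lower. A gene that is bright at 0 h alone can pass the filter on mean signal through that group, so the count of 4 says nothing of the 7 that did not pass. From 2 h to 6 h AT1G55210 and AT2G21100 fell, against 5.59% of all tested probe sets. At 2 h 0 of the 4 were called (limma, 1 at an unadjusted p under 0.05), against 11.4% of all tested probe sets.

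AT2G21100 was bright at both 0 h and 2 h, with signals of 510.5 and 263.4 at 0 h, then 431.5 and 1034.2 at 2 h and finally 55.5 and 56.4 at 6 h. It fell by 2.61 ± 0.46 from 0 h (adjusted p = 0.00135, limma) and its 6 h arrays agreed closely, unlike those of AT4G13580. AT1G55210 read 642 and 867.3, then 425.7 and 811.5, then 125.7 and 157.1, and fell by 2.37 ± 0.38 from 0 h to 6 h (adjusted p = 0.000739, limma). AT4G11190 had already a lower signal at 2 h, with 686.2 and 255.7 at 0 h, then 64.2 and 98.8 at 2 h and finally 2.3 and 36.5 at 6 h. Its log2 change was -2.32 ± 0.78 at 2 h (adjusted p = 0.083, limma) and -4.61 ± 0.78 at 6 h (adjusted p = 0.00105). AT4G11210, its direct neighbour in the annotation, read 333.9 and 146.5, then 101.8 and 131.4, then 36.7 and 31.8, and fell by 2.53 ± 0.51 from 0 h to 6 h (adjusted p = 0.0028, limma). The 6 h signals of AT2G21100, AT4G11190 and AT4G11210 also lay below 76.7, so the sizes of these falls are uncertain too.

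The 7 loci below the filter had signals between 1.5 and 124.5, and 6 of them were called absent on replicate 1 at 2 h. AT3G13660 and AT3G13662 follow AT3G13650 directly in the annotation, with no other protein-coding gene in between. AT3G13660 read between 14.8 and 84.4 over the 6 arrays. AT3G13662 read 10.1 and 17.2 at 0 h, then 4.1 and 7.4 at 2 h and finally 49.6 and 71.6 at 6 h, so both 6 h arrays were its brightest. All its signals lay below 76.7, the 95th percentile of signals called absent on replicate 1 at 2 h, and it was called absent there, so they may be background. In a fit without the filter the log2 change of AT3G13662 from 2 h to 6 h was 2.61 ± 0.79 (adjusted p = 0.0896, limma), which did not pass.

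**Figure D4:**
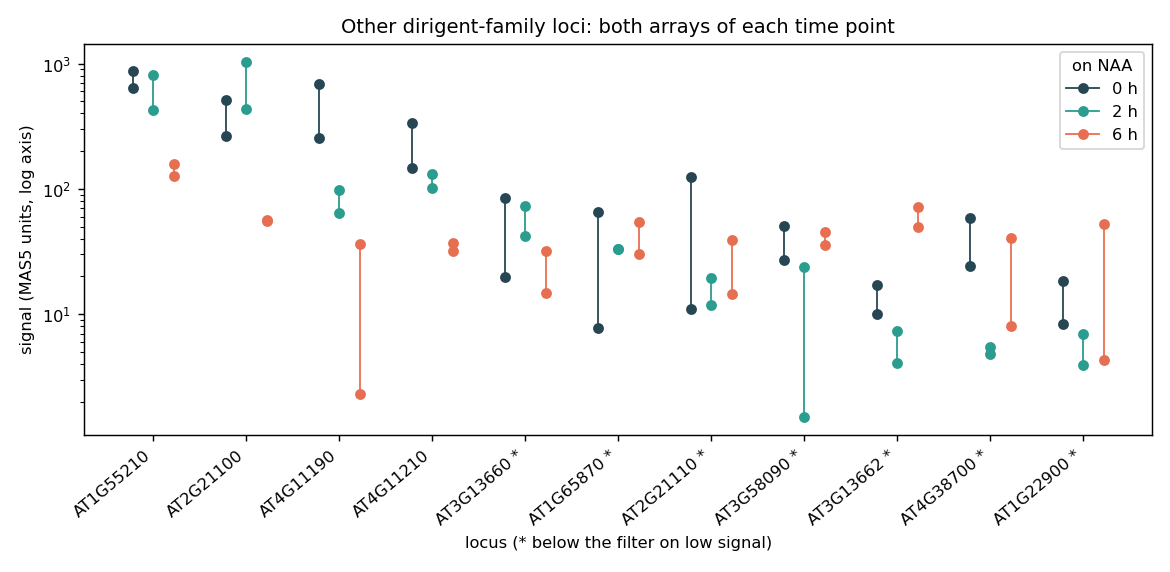
Signals (MAS5 units, log axis) of 11 other dirigent-family loci, with the 2 arrays of each time point joined by a line and loci ordered by mean signal; an asterisk marks the 7 below the filter on low signal. AT1G55210, AT2G21100, AT4G11190 and AT4G11210 are lowest at 6 h. AT3G13662, below the filter, is highest there at signals that may be background.

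Signals of a shared probe set belong to no gene in particular. The probe set paired with both the dirigent locus AT1G07730 and AT1G07740 read 463.8 and 345 at 0 h, then 212.9 and 962.1 at 2 h and finally 144.4 and 77.5 at 6 h. Its log2 change from 0 h to 6 h was -1.87 ± 0.59 (adjusted p = 0.0303, limma). The probe set paired with both AT5G42500 and AT5G42510, which are dirigent loci, read 38.9 and 91.9, then 39.1 and 119.9, then 7.1 and 4, and lay below the filter. It was called absent on replicate 1 at 2 h. Both probe sets were lower on both 6 h arrays than on any earlier array. Of all tested probe sets 35.4% were lower with no overlap from 0 h to 6 h, and 25.3% from 2 h to 6 h. For the probe set of AT1G07730 and AT1G07740 the change from 2 h to 6 h did not pass (adjusted p = 0.0544, limma).

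Technical signs were read beside these results. Hybridisation controls are spiked transcripts foreign to the plant. They were brighter on replicate 1 of the 0 h pair and on replicate 2 of both later pairs. Brighter and dimmer were set within each pair, so every time point holds 1 array of each class by definition. The geometric mean of these controls ranged from 4539 to 10419 over the brighter arrays and from 1304 to 2078 over the dimmer ones. The classes thus did not overlap, but neither is a single common level. Within the brighter arrays the change from 0 h to 6 h was -6.19 for AT4G13580, -7.17 for AT2G39430 and 1.35 for AT1G58170, and within the dimmer arrays it was -3.47, -2.74 and 2.15. Actin control probe sets, whose 3' over 5' ratio reads RNA integrity and labelling, gave 3.84 to 4.48 at 6 h against 1.40 to 2.22 at 0 h and 1.37 to 2.98 at 2 h; its part in the falls was not tested. The ratio of the GAPDH controls was 3.42 to 4.37 at 6 h, inside its range of 2.68 to 5.78 at 0 h. That of the ubiquitin controls was 8.81 to 10.67 at 6 h, above its range of 5.99 to 8.31 at 0 h, and was 6.13 to 9.71 at 2 h.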

How the data were processed

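Transcript levels of 6 one-colour Affymetrix arrays were used, 1 per sample. The deposited values are linear signal intensities per probe set, made with MAS5 per the submitters' processing notes; its settings and version are not stated in the labels. All arrays had a mean of 250.0 once the top and bottom 2% of values were trimmed, and medians ran from 75.8 to 109.9. A deposited detection p-value and call per probe set was used for replicate 1 at 2 h, as a description only.

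Signals were taken as log2(signal + 5) from the deposited intensities, which understates changes of dim genes. Of 22810 probe sets 64 controls were left out, and the 13647 with a mean above the 40th percentile were tested in 1 fit of all 6 arrays (limma 3.58.1, lmFit and eBayes with intensity trend, R 4.3.3), Benjamini-Hochberg adjusted over all of them and called under 0.05. The fit was tested on simulated data. Genes came from a table of 13513 single-gene probe sets, 13436 of them matched to TAIR10.1 by gene ID; 503 probe sets had several genes. Named are all members, at most 6 genes per list, and the 3 nearest genes of the 3 members with the largest F. Members and lists were chosen with earlier results of these data known. Nothing says the replicates came from separate plantings, so p-values measure the spread between these samples. The number of arrays limits the precision. Alternatives were other pseudocounts, filters, normalizations and spread estimates, blocks, and arrays left out.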

Additional observations from a re-analysis of the deposited data

How the results depend on the processing

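From 0 h to 6 h and from 2 h to 6 h the calls on AT4G13580 and AT2G39430 held their direction and passed the test under all 17 alternatives, with log2 changes of -6.21 to -3.45 and -6.65 to -3.26 from 0 h and of -7.2 to -4.44 and -7.01 to -3.62 from 2 h. The rise of AT1G58170 held under all 17 at 6 h (adjusted p = 0.00282 to 0.0453, limma) and under 14 of 17 at 2 h. When single arrays were left out, the count of genes called ranged from 0 to 1 at 2 h, from 3 to 4 from 0 h to 6 h, and was 2 from 2 h to 6 h and 3 in the F test throughout; the array left alone is then assumed to vary like the other groups, the fit has fewer degrees of freedom, and other causes were not tested. Changes not called at the full sample size turned sign in some of these fits: AT3G13650 ran from -0.73 to 1.03 at 2 h (lowest without replicate 1 at 0 h) and from -1.06 to 0.70 at 6 h (above 0 without replicate 2 at 0 h), and AT2G39430 from -0.16 to 0.88 at 2 h (-0.16 without replicate 2 at 0 h and -0.09 without replicate 2 at 2 h). Same-numbered arrays were not taken as pairs in the main fit. Their deviations correlated at 0.06, 0.11 and 0.15 between time points, which is weak but positive throughout. With the replicate number as a block 1, 3 and 2 genes were called in the 3 comparisons and 3 in the F test, as without it. Over all tested probe sets that block gave 2038, 5106 and 1662 calls, against 1553, 4612 and 1190 without it. With the hybridisation control class as a block the calls were 1242, 4296 and 904. Whether arrays of the same number shared a source was not tested. Calls over all tested probe sets at 2 h were 1553, and 976 without the intensity trend, 656 without replicate 1 and 473 without replicate 2 at 2 h. From 2 h to 6 h they were 1190, and 1849 with only the 4 arrays compared and 521 to 604 without single arrays of those groups. From 0 h to 6 h they were 4612, and 3026 without replicate 1 at 6 h. Each locus had 1 probe set, so the choice of another probe set was not run.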
